A study of Sus scrofa with 24 samples.

Results

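The proteasome subunits were measured here in peripheral blood mononuclear cells (PBMNCs) of pigs on 6 diets. The members were the probe sets whose gene symbol, in the array platform's annotation, was PSM followed by a letter from A to G and a number. They were 46 of 24123 probe sets and stood for 40 of 6765 genes with a symbol. Their mean log2 intensities over the 24 arrays ran from 5.50 (the dimmest of 3 for PSMD11) to 11.99 (PSMA7). All 46 were among the 17999 probe sets left after control probe sets and the dimmest 25% had been removed. By role they comprised 7 probe sets for the alpha ring of the 20S core, 7 for its beta ring and 2 for inducible catalytic subunits (PSMB8, PSMB10). There were 7 for the ATPases and 15 for the non-ATPases of the 19S cap, 6 for activators and the inhibitor PSMF1, and 2 for assembly chaperones. PSMA8, PSMB9, PSMB11, PSMC4, PSMD7, PSMD9, PSMG2 and PSMG4 were not analysed here.

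The proteasome is the main protease of the cytosol and nucleus. Its barrel-shaped 20S core is built of alpha rings, which gate entry, and beta rings, which hold the active sites on PSMB5, PSMB6 and PSMB7. The 19S cap recognises ubiquitin-tagged proteins, unfolds them with its ring of ATPases and feeds them to the core. In blood leukocytes, and more so under interferon, PSMB8 and PSMB10 take the places of PSMB5 and PSMB7 to form the immunoproteasome, and the PSME1 and PSME2 ring can cap the core. These forms are known for making peptides for class I antigen presentation.

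Each of the 6 groups held 4 pigs (2 females, 2 males), 1 Affymetrix array per animal, fed for 4 months. CT animals had commercial chow, and CT-GE-RES animals had chow with a resveratrol-enriched grape extract (1 g extract, with 18 mg resveratrol, per 70 kg body weight). AD animals had an atherogenic diet with 1% cholic acid, 10% coconut oil and 5.5% beef tallow added. AD-GE added plain grape extract (1 g per 70 kg), AD-GE-RES the enriched extract, and AD-RES resveratrol alone (18 mg per 70 kg), all on the atherogenic diet. The design compared AD with CT, each supplement on AD with AD, and CT-GE-RES with CT. All values below are log2 intensities of single probe sets, or differences between them. Differences were fitted with limma over all 24 arrays with sex in the model, and p-values were adjusted over the 17999 probe sets (Benjamini-Hochberg, threshold 0.05).

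The arrays were alike in brightness, with medians between 38.6 and 41.2 intensity units. Their 3'/5' ratio was taken on the log2 scale. It was the log2 signal of a control transcript at the 3' end minus that at the 5' end, averaged over 3 transcripts. The ratio is higher in shorter or more degraded RNA, and ran from 1.37 to 4.39 log2 units. One CT male (CT 4) stood apart. It had the highest 3'/5' ratio, the lowest mean of the T cell genes (-1.34 from their average over all arrays), the highest mean of the neutrophil genes (2.17) and the highest of the erythroid genes (1.84). For the comparisons with CT, counts and medians are therefore also given without CT 4, and a single member where leaving CT 4 out moved its difference by over 1.5 times or turned its sign. Genes that define T cells, B cells and monocytes were measured, as a PBMNC label implies, but CD4, SIGLEC1 and ITGAM were near the filter limit of 3.57, at means of 4.54, 3.95 and 3.58. In RNA of mixed cells, fewer cells of a type and less RNA per cell cannot be told apart.

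No proteasome probe set passed the threshold in any of the 5 diet comparisons, and 0% of all probe sets did so in each of them. In the moderated F test of limma over all 6 groups, 0 of 46 were called (0% of all probe sets). At an unadjusted p under 0.05 the F test took in 8 of 46, against 9.16% of all probe sets. PSMB10 led it (F = 5.56, limma adjusted p = 0.310), then PSMA5 (F = 5.27, limma adjusted p = 0.320). The threshold left small differences mostly uncalled. In simulated data with the fitted spread, differences were added to 200 of the 17999 probe sets for CT-GE-RES against CT. Those of 0.25 were called in 4% of cases, those of 0.5 in 34%, those of 1 in 78% and those of 2 in 98%. Large differences ease the adjusted threshold for the smaller ones in the same data. These rates therefore do not carry over to the real comparison, where 0% were called. The median standard error of a difference between 2 groups was 0.13, and the 95% interval lay within a 2-fold change for 42 to 43 of the 46 in each diet comparison.

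Although no single subunit was called, the subunits lay together by group. CT-GE-RES held the highest of the 6 group means for 34 of the 46 probe sets and the lowest for none, while over all probe sets tested it was highest in 21.7% and lowest in 19% of cases. AD-GE held the lowest mean for 20 (18.8% of all probe sets), and CT for 16 (21.9% of all). CT held the highest mean for 1 of the 46.

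**Figure D1:**
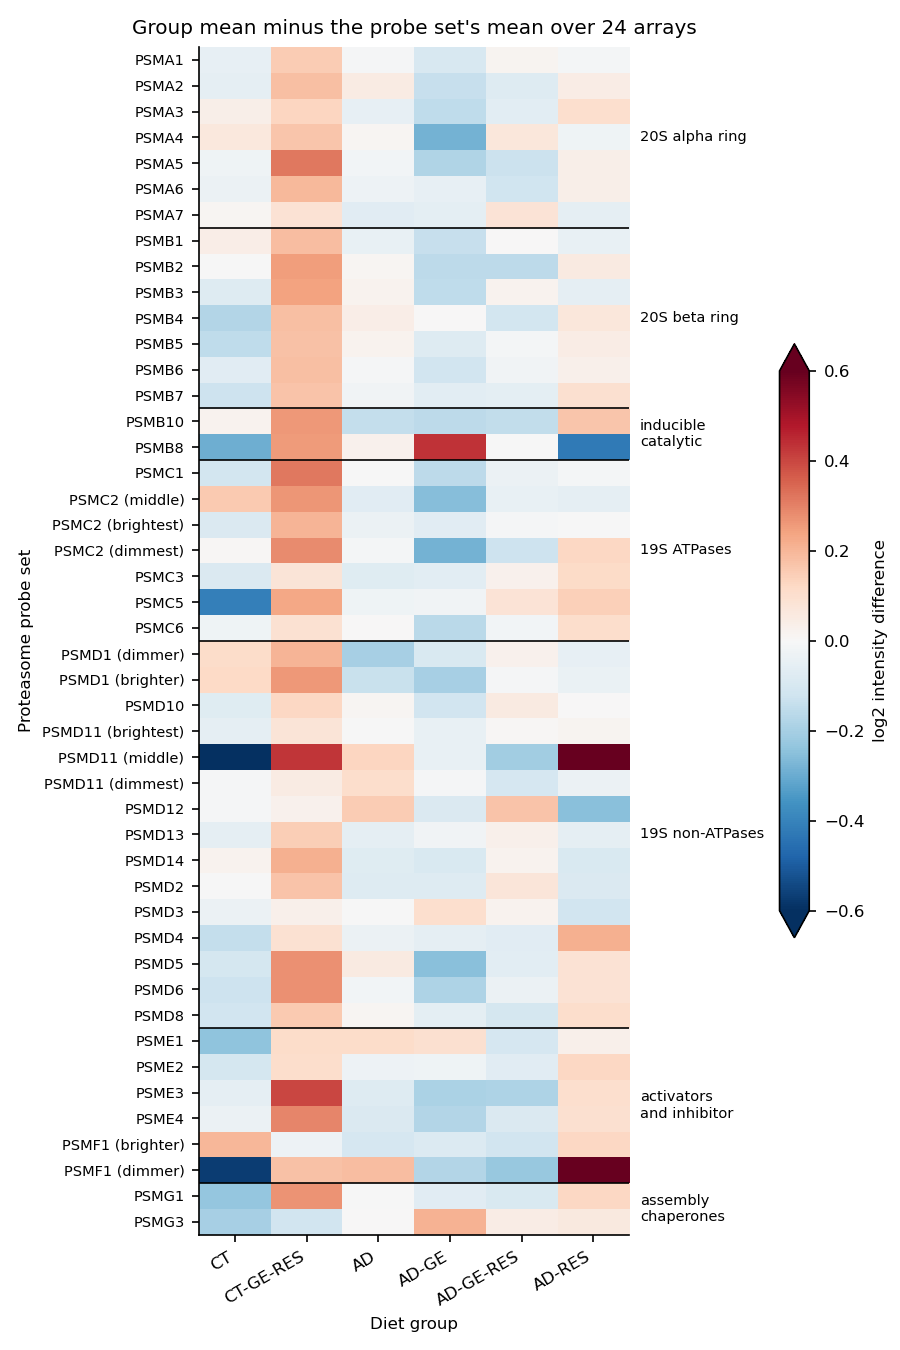
Group mean of each of the 46 proteasome probe sets minus that probe set's mean over the 24 arrays (log2 intensity, colour scale ending at 0.6 in either direction, so that the middle PSMD11 and the dimmer PSMF1 probe set run past it in some groups), for the 6 diet groups, ordered by role. The CT-GE-RES column is red in nearly every role, and AD-GE is blue in most rows of both 20S rings.

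The animals of a group varied in this respect. In CT-GE-RES, 42, 35, 41 and 38 of the 46 probe sets were above their own mean over all arrays. The counts were 34, 23, 13 and 13 in CT, and 13, 35, 34 and 5 in AD. They were 9, 9, 20 and 15 in AD-GE, 7, 20, 22 and 31 in AD-GE-RES, and 30, 23, 27 and 27 in AD-RES. The lowest CT-GE-RES animal thus equalled the highest AD animal, and CT, AD and AD-GE-RES were spread widely. AD-RES animals were close to each other.

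**Figure D2:**
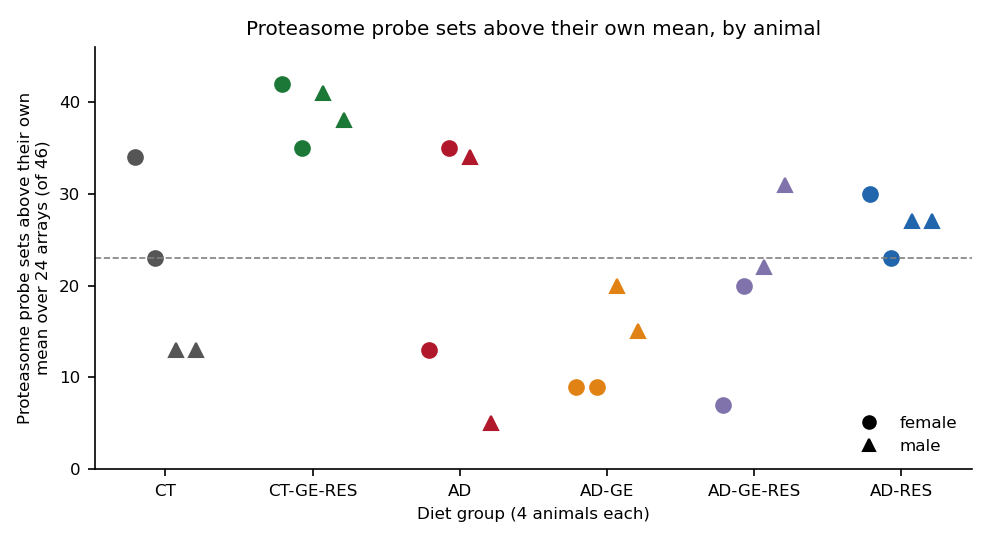
Number of the 46 proteasome probe sets above their own mean over 24 arrays (y axis), by diet group and animal; circles are females and triangles males, and the dashed line marks 23, which is 1 in 2 of the 46. The 4 CT-GE-RES animals lie between 35 and 42, and the 4 AD-GE animals between 9 and 20.

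The largest set of differences was that between CT-GE-RES and CT. In CT-GE-RES, 45 of 46 probe sets were higher than in CT, by a median of 0.23, while the median of all probe sets differed by 0.0094 and 52.3% were higher. None was called (limma, smallest adjusted p = 0.700). At an unadjusted p under 0.05, 14 of the 46 were higher and 0 lower, against 6.8% of all probe sets in either direction and 3.87% higher. For 7 of them, PSMA2, PSMA5, PSMB4, PSMB5, PSMB7, PSME3 and PSMG1, every CT-GE-RES animal was above every CT animal, which held for 1.91% of all probe sets. Without CT 4, 44 of 46 were higher, by a median of 0.16. Of the 45 higher with it, 43 were also higher without it, while PSMD3 and PSMG3 turned lower and the brighter PSMF1 probe set turned higher. The number at an unadjusted p under 0.05 fell to 5 without CT 4 (PSMA5, PSMB5, the brightest PSMC2 probe set, PSME3 and PSMG1), all among the 14. Leaving CT 4 out moved the difference by over 1.5 times, or turned its sign, for 24 of the 46. The number at an unadjusted p under 0.05 was 8 without CT-GE-RES 1 and 21 without CT 1. It was 7 with array weights and 7 with only the arrays of the groups compared. Females alone gave 42 of 46 higher with a median of 0.12, and 3 at such a p. Males alone, with CT 4 among them, gave 41 of 46 with a median of 0.31, and 22 at such a p. Of all probe sets 50.6% were higher in females alone and 52.3% in males alone. The share of all probe sets at such a p was not taken in these refits.

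The assembly chaperone PSMG1, which helps alpha subunits form their ring, had the smallest p. It read 7.98, 7.86, 8.08 and 7.84 in the CT-GE-RES animals and 7.72, 7.59, 7.55 and 6.88 in CT. The groups did not overlap, and CT 4 was the lowest of all. The difference was 0.50 (SE 0.15), or 1.42-fold, with a limma adjusted p of 0.700, and it was 0.32 without CT 4. PSMG3, the other chaperone measured, differed by 0.086, and by -0.0096 without CT 4.

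All 7 alpha ring probe sets were higher in CT-GE-RES than in CT, with a median difference of 0.20 (range 0.076 to 0.34), or 0.13 without CT 4. PSMA5 read 9.48, 9.38, 9.56 and 9.33 against 9.20, 9.17, 9.30 and 8.71 in CT. Its lowest supplemented animal was just above the highest control. The difference was 0.34 (SE 0.11; 1.27-fold; limma adjusted p = 0.700) and 0.23 without CT 4. PSMA2 (0.24, and 0.15 without CT 4) was the other alpha subunit under an unadjusted p of 0.05. PSMA6 (0.23, SE 0.18) and PSMA1 (0.20, SE 0.10) were close to it in size, although without CT 4 PSMA6 differed by 0.075, and PSMA4 (0.10), PSMA3 (0.093) and PSMA7 (0.076) were smaller.

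The beta ring carried the most of them, with 7 of 7 higher, 5 of 7 at an unadjusted p under 0.05 and a median of 0.30. Without CT 4 all 7 were higher by a median of 0.12, and 1 of 7, PSMB5, had an unadjusted p under 0.05. PSMB5, which bears the chymotrypsin-like site, read 9.45, 9.31, 9.34 and 9.28 in CT-GE-RES and 9.10, 9.17, 9.15 and 8.67 in CT. The 3 CT animals other than CT 4 lay within 0.1 of each other and below all supplemented animals. Its difference was 0.33 (SE 0.11; 1.25-fold; limma adjusted p = 0.700), and 0.21 without CT 4. PSMB6, which bears the caspase-like site, read 10.46, 10.32, 10.48 and 10.29 against 10.19, 10.34, 10.29 and 9.73, so that the groups overlapped (difference 0.25, SE 0.11; 0.12 without CT 4). PSMB7, which bears the trypsin-like site, read 10.31, 10.28, 10.38 and 10.26 against 10.15, 10.14, 10.24 and 9.51. Its groups did not overlap (difference 0.30, SE 0.12), and without CT 4 the difference was 0.12. The structural subunits PSMB4 (0.35) and PSMB3 (0.32) were the others under an unadjusted p of 0.05, and without CT 4 they differed by 0.21 and 0.15. PSMB2 differed by 0.25, or 0.11 without CT 4, and PSMB1 by 0.15.

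Both inducible catalytic subunits were higher on average in CT-GE-RES, but with unlike spread. PSMB10 read 9.61, 9.37, 9.73 and 9.48 against 9.40, 9.22, 9.35 and 9.26 in CT, with 1 supplemented animal inside the control range. The difference was 0.24 (SE 0.11; 1.18-fold; limma adjusted p = 0.700). PSMB8 read 11.82, 11.41, 10.86 and 10.17 against 11.02, 9.63, 11.11 and 10.31. The groups overlapped over most of their range, and the difference of 0.55 was no larger than its standard error of 0.55.

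In the 19S cap, 7 of 7 ATPase probe sets were higher in CT-GE-RES, by a median of 0.27, and 3 had an unadjusted p under 0.05: PSMC1 (0.43), PSMC2 (0.29 at its brightest probe set) and PSMC5 (0.64, SE 0.29). Without CT 4 the median was 0.19, and PSMC1 (0.28) and PSMC5 (0.32) no longer had such a p. PSMC3 (0.16) and PSMC6 (0.12) were the least different genes of the ATPase ring. All 15 non-ATPase probe sets were higher too, by a median of 0.19; without CT 4, 14 of 15 were, by 0.16. Of these, PSMD6, a lid subunit, alone had an unadjusted p under 0.05 (0.40, SE 0.15), and none did without CT 4 (PSMD6 0.29). Smaller differences were seen for PSMD2, which docks ubiquitin-bearing shuttles (0.17), PSMD14, the deubiquitinating enzyme of the lid (0.19), PSMD3 (0.063) and PSMD12 (0.033). Without CT 4 PSMD3 was at -0.014 and PSMD12 at 0.16. PSMD4, a ubiquitin receptor, differed by 0.23, the lid subunits PSMD8 and PSMD13 by 0.27 and 0.20, and PSMD5 and PSMD10, which guide the assembly of the cap base, by 0.38 and 0.19. PSMD5 was low in CT 4, and without that animal it differed by 0.074.

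Among the regulators, 5 of 6 probe sets were higher in CT-GE-RES (median 0.34), and 6 of 6 without CT 4 (median 0.17). PSME1 read 11.76, 11.77, 11.89 and 11.64 against 11.85, 11.57, 11.52 and 10.71 in CT, and its partner PSME2 10.39, 10.23, 10.52 and 10.27 against 10.35, 10.15, 10.14 and 9.93. For both the highest control lay inside the supplemented range, and CT 4 was the lowest animal. The differences were 0.36 (SE 0.18) for PSME1 and 0.21 (SE 0.10) for PSME2, and without CT 4 they were 0.11 and 0.14. The nuclear activator PSME3 read 6.90, 6.42, 6.25 and 6.33 against 6.16, 5.75, 6.05 and 6.12, with no overlap (difference 0.45, SE 0.19; 0.49 without CT 4). PSME4, a further cap of the core, differed by 0.33 (SE 0.26; 0.20 without CT 4). The only probe set of the 46 that was lower was the brighter of the pair for PSMF1, an inhibitor of the core (-0.23, SE 0.21). Its sign rested on CT 4, and without that animal the difference was 0.0082.

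**Figure D3:**
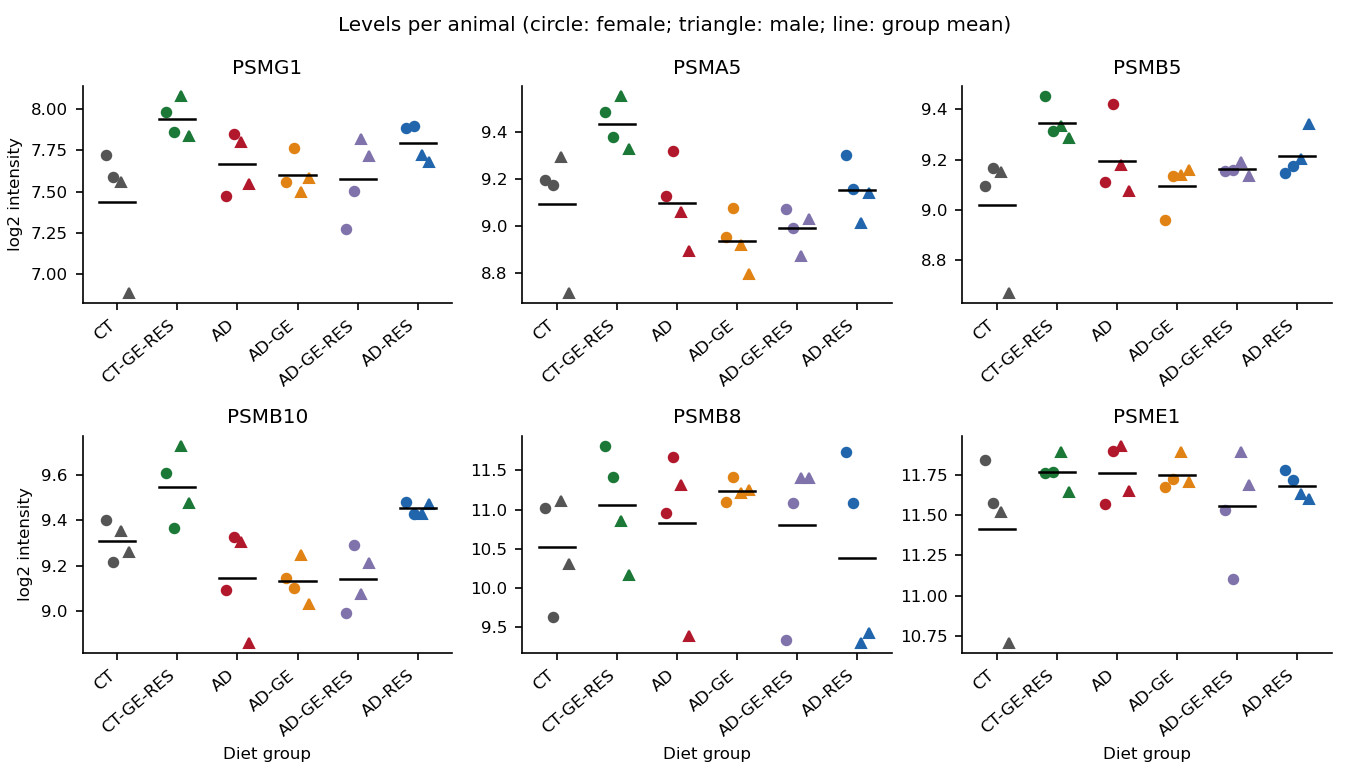
Log2 intensity (y axis) of PSMG1, PSMA5, PSMB5, PSMB10, PSMB8 and PSME1 in each of the 24 animals by diet group; circles are females, triangles males, lines group means, and each panel has its own scale. The CT-GE-RES animals are above all CT animals for PSMG1, PSMA5 and PSMB5, AD-RES is above AD for PSMB10, and PSMB8 has 5 low animals, in CT, AD, AD-GE-RES and AD-RES.

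On the atherogenic diet that pattern was not seen between the groups with and without the enriched extract. In AD-GE-RES, 19 of 46 probe sets were higher and 27 lower than in AD (median -0.018; median of all probe sets 0.0089, 52.4% of them higher). None was called and 0 of 46 had an unadjusted p under 0.05, against 2.4% of all probe sets (limma, smallest adjusted p = 0.9995). The median took the other sign with each array centred on its median (0.0099, 27 higher), with array weights (0.052), with the 3'/5' ratio as a covariate (0.030, 30 higher) and without AD 2 (0.015), AD 3 (0.029) or AD-GE-RES 1 (0.044). Females alone had 12 of 46 higher (median -0.099) and males alone 34 of 46 (median 0.056). With quantile normalization 13 were higher. Monocyte genes were higher in 1 of 9 (list means of -0.23 to 0.39 against 0.070 to 0.60 in AD), neutrophil genes in 0 of 7 (-0.73 to 1.01 against -0.23 to 1.38) and interferon response genes in 1 of 15 (-0.61 to 0.014 against -0.083 to 0.71), with exact permutation p of 0.114, 0.257 and 0.0571. A fit with the monocyte, B cell and erythroid list means as covariates called 0 of 46 members and 0 of all probe sets. The fit without them did the same, so the calls could not show a part of the cell mix. The part of these lists was not tested further.

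The 3 smallest p-values in this comparison belonged to PSMD11, PSMA7 and PSMD2. The dimmest PSMD11 probe set read 5.35, 5.40, 5.49 and 5.35 in AD-GE-RES against 5.48, 5.74, 5.66 and 5.53 in AD (-0.20, SE 0.10), with 1 animal of AD-GE-RES inside the AD range. PSMA7 read 12.03, 12.36, 11.99 and 11.93 against 12.08, 11.92, 11.79 and 11.90 (0.15, SE 0.09), and the groups overlapped. PSMD2 read 9.04, 9.37, 9.39 and 9.17 against 9.10, 9.13, 9.17 and 8.98 (0.15, SE 0.09), and these overlapped as well.

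Whether the extract acted differently on the 2 diets was tested directly, as its difference on AD minus its difference on chow. This contrast was negative for 43 of 46 probe sets, with a median of -0.26 against 0.0013 for all probe sets. None was called (limma, smallest adjusted p = 0.9999; 0% of all probe sets). At an unadjusted p under 0.05, 7 of 46 were lower and 0 higher, against 3.12% of all probe sets in either direction and 1.75% lower. The smallest p belonged to PSMA5 (-0.45, SE 0.15), followed by PSMB4 (-0.50, SE 0.18), PSMG1 (-0.59, SE 0.22), PSMA2 (-0.36), PSMB5 (-0.36), PSMB2 (-0.42) and PSME1 (-0.56, and -0.32 without CT 4). The count was 4 without CT 4 (PSMA5, PSMB4, PSMG1 and PSMA2), 16 without CT 1, 12 without AD 4 and 11 without AD-GE-RES 4. With array weights the count was 2. With the 3'/5' ratio as a covariate it was also 2 (277 of all 17999 probe sets), and the median was -0.14, with 10 of 46 positive.

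**Figure D4:**
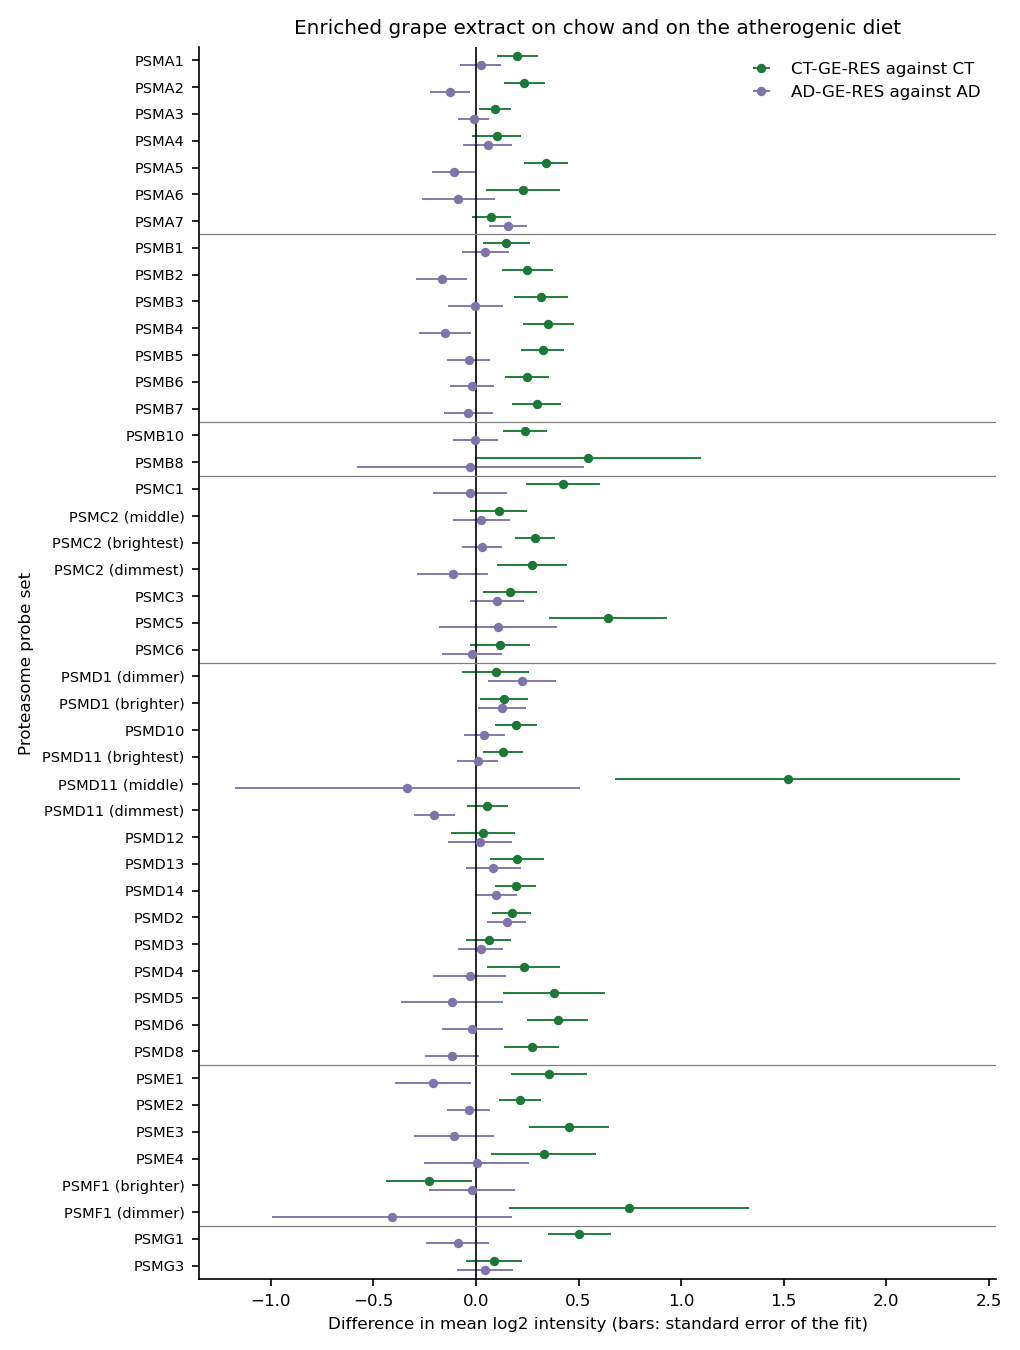
Difference in mean log2 intensity (x axis; points are limma estimates and bars their standard errors) for each of the 46 proteasome probe sets, grouped by role, for CT-GE-RES against CT (green) and AD-GE-RES against AD (purple). The green points are above 0 for 45 of 46 probe sets, and the purple points for 19 of 46.

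In AD against CT the subunits did not all lie on 1 side. In AD 32 of 46 probe sets were higher and 14 lower, with a median of 0.050 (all probe sets 0.0017, 50.4% higher). The number higher was 27 with quantile normalization or median centring and 21 with array weights. None was called (limma, smallest adjusted p = 0.757), and 1 of 46 had an unadjusted p under 0.05, against 6.38% of all. That member was the brighter probe set of PSMD1, the large scaffold subunit of the cap base. It read 9.54, 9.46, 9.59 and 9.28 in AD against 9.51, 9.79, 9.65 and 9.92 in CT. AD animals were lower on the whole but overlapped with the lowest CT animal (-0.25, SE 0.12; -0.17 without CT 4). The second PSMD1 probe set read 9.17, 8.80, 8.78 and 8.85 against 9.19, 9.24, 8.96 and 9.43 (-0.31, SE 0.17), so that both were lower in AD.

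PSME1 read 11.57, 11.90, 11.93 and 11.65 in AD, against the CT values given above (0.35, SE 0.18), and without CT 4 the difference was 0.11. Over the 46 probe sets the median was -0.0026 without CT 4, with 22 higher (21 of them among the 32), and -0.035 with the 3'/5' ratio as a covariate, with 16 higher. It was -0.056 in females and 0.15 in males. The count under an unadjusted p of 0.05 was 7 without CT 1, 2 without CT 3, 3 without AD 1, 2 without AD-GE-RES 2 and 0 without CT 2, CT 4, AD 2 or AD 4.

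With plain grape extract on the atherogenic diet, 36 of 46 probe sets were lower than in AD and 10 higher (median -0.080; all probe sets 0.0065, 51.4% higher). The number higher was 18 with quantile normalization, 6 with each array centred on its median and 22 in males alone. All 7 of the beta ring and 6 of 7 of the alpha ring were lower. None was called (limma, smallest adjusted p = 0.804), and 1 of 46 had an unadjusted p under 0.05, against 6.09% of all probe sets. This was PSMA4, which read 9.76, 10.16, 10.19 and 10.05 in AD-GE against 10.24, 10.35, 10.46 and 10.30 in AD. It was the only member with every AD-GE animal below every AD animal, a pattern of 2.99% of all probe sets. Its difference was -0.30 (SE 0.12; limma adjusted p = 0.804).

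PSMA2 read 11.35, 11.46, 11.41 and 11.35 against 11.72, 11.71, 11.52 and 11.36 (-0.19, SE 0.10), and the lowest AD animal lay inside the AD-GE range. The dimmest PSMC2 probe set read 6.89, 6.96, 6.66 and 6.83 against 6.78, 7.39, 7.29 and 6.97 (-0.27, SE 0.17), with 1 AD animal inside the AD-GE range. The monocyte genes were also lower in AD-GE, 9 of 9, with list means of -0.59 to -0.0084 against 0.070 to 0.60 in AD (exact permutation p = 0.029, the smallest that 4 against 4 allows; adjusted p = 0.681 over 45 tests). Of 15 genes of the interferon response 1 was higher in AD-GE, and the list means ran from -1.04 to 0.011 against -0.083 to 0.71 (exact permutation p = 0.0571; adjusted p = 0.681 over 45 tests). With the monocyte, B cell and erythroid list means as covariates, the members' median was 0.0054 and 24 of 46 were higher. The part of the cell mix in the difference was not tested further. The number higher was 6 without AD 1, 18 without AD 2, 16 without AD 3 and 5 without AD 4. The count under an unadjusted p of 0.05 was 0 without AD 3 or AD-GE 1, 2 without CT 4 or AD-GE-RES 1, and 3 without AD 1 or AD 4.

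With resveratrol alone on the atherogenic diet, 32 of 46 probe sets were higher than in AD and 14 lower, with a median of 0.037 (all probe sets -0.0024, 49.4% higher). None was called (limma, smallest adjusted p = 0.980), and 2 of 46 had an unadjusted p under 0.05, against 4.45% of all. PSMB10 read 9.48, 9.43, 9.43 and 9.47 in AD-RES and 9.09, 9.33, 9.30 and 8.86 in AD. The AD-RES animals lay within 0.1 of each other and above every AD animal, a separation seen for 1.24% of all probe sets. The difference was 0.31 (SE 0.11; 1.24-fold; limma adjusted p = 0.980), and 0.30 with the 3'/5' ratio as a covariate. PSMB7, whose place PSMB10 takes, differed by 0.12 (SE 0.12), and PSMB8 by -0.45 (SE 0.55).

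PSMD12, a lid subunit, went the other way, at 7.82, 7.72, 7.39 and 7.65 in AD-RES against 7.97, 7.91, 8.03 and 8.28 in AD. These groups did not overlap either, and 1.57% of all probe sets were below AD in that way (-0.40, SE 0.16; limma adjusted p = 0.980). PSMA3 read 11.82, 11.75, 11.82 and 11.88 against 11.76, 11.70, 11.64 and 11.55 (0.15, SE 0.08), with 1 AD-RES animal level with the highest AD animal. Among the cell markers, 0 of 7 neutrophil genes were higher in AD-RES than in AD (list means of -1.08 to 0.50 against -0.23 to 1.38), 1 of 9 monocyte genes (-0.81 to 0.33 against 0.070 to 0.60) and 0 of 4 B cell genes (-0.77 to 0.39 against -0.69 to 0.49), with exact permutation p of 0.171, 0.257 and 0.457. With the monocyte, B cell and erythroid list means as covariates, the members' median was 0.098 and 38 of 46 were higher. PSMD12 then differed by -0.67. The part of the cell mix in the differences of the subunits was not tested further. Without AD 4 none of the 46 had an unadjusted p under 0.05, and without AD-RES 3 there was 1.

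PSMB10 over all diets had its highest group means in CT-GE-RES (9.55 ± 0.16, SD, n = 4) and AD-RES (9.45 ± 0.03). CT followed at 9.31 ± 0.08, and AD, AD-GE and AD-GE-RES were level at 9.14 ± 0.22, 9.13 ± 0.09 and 9.14 ± 0.14. The 2 highest groups did not differ beyond their spread, nor did the 3 lowest. The animals of AD-GE read 9.15, 9.10, 9.24 and 9.03, and those of AD-GE-RES 8.99, 9.29, 9.07 and 9.21.

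The subunits differed in how even they were between animals of a group. The residual SD was smallest for PSMA3, and 99.6% of all probe sets had a larger one. PSMB8 was at the other end, where only 1.31% had a larger one, and only the middle PSMD11 (0.117%) and the dimmer PSMF1 probe set (1.02%) varied more among the members. For PSMB8, AD-GE animals read 11.09, 11.41, 11.21 and 11.25, within 0.32 of each other. By contrast AD read 10.95, 11.68, 11.32 and 9.38, AD-GE-RES 9.33, 11.08, 11.40 and 11.41, and AD-RES 11.73, 11.09, 9.30 and 9.42. Over the 24 animals, 5 lay between 9.30 and 9.63 and 17 between 10.86 and 11.82, with 2 between them at 10.17 and 10.31. The 5 low animals belonged to CT, AD, AD-GE-RES and AD-RES, and both sexes were among them. The probe set of the class I gene SLA-3 was also low in CT 2 (9.08), AD 4 (9.91), AD-GE-RES 1 (9.14), AD-RES 3 (9.44) and AD-RES 4 (9.29). It was low in CT-GE-RES 4 as well (9.68), and the other animals read 11.19 or more. SLA-2 read 12.80 to 12.99 in the 5 animals, within its range of 12.37 to 13.46. The link to PSMB8 was not tested. No diet comparison of PSMB8 had a difference larger than its standard error of 0.55 (range -0.45 to 0.55).

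PSMB5, whose place PSMB8 takes, kept a narrow range on the atherogenic diets, at 9.11, 9.42, 9.18 and 9.07 in AD, 8.96, 9.13, 9.14 and 9.16 in AD-GE, 9.16, 9.16, 9.19 and 9.14 in AD-GE-RES, and 9.15, 9.17, 9.20 and 9.34 in AD-RES. PSMB6 and PSMB7 were as even in the supplemented AD groups. PSME2 read 10.22, 10.21, 10.24 and 10.22 in AD-GE, the tightest group of any gene given here, and 10.15, 10.33, 10.34 and 10.05 in AD.

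Males and females were compared across all diets. In males 16 of 46 probe sets were higher and 30 lower (median -0.016; all probe sets -0.012, 45.9% higher). None was called, against 0.267% of all probe sets (limma, smallest adjusted p = 0.351). At an unadjusted p under 0.05, 3 of 46 were lower and 0 higher, against 10.3% of all probe sets in either direction and 7.23% lower. They were PSMC2 (the probe set of middle brightness; -0.22, SE 0.08), PSMA7 (-0.15, SE 0.05) and PSMA5 (-0.13, SE 0.06). With array weights PSMC2 and PSMA7 passed the threshold (limma adjusted p = 0.0280 and 0.0439), as did 4.48% of all probe sets. These 2 of 46 are near that share.

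The 3'/5' ratio moved with part of the set. In the fit with diet and sex, 38 of 46 probe sets had a negative slope on the ratio, against 41.2% of all probe sets. The median slope was -0.072 log2 per log2 unit of the ratio (all probe sets 0.020). Of the 46, 11 were called lower at a higher ratio and 0 higher, against 8.29% and 3.24% of all probe sets. They were probe sets for PSMD11, PSMF1, PSMC5, PSMD4, PSMD8, PSMC1, PSMD6, PSME1, PSMB4, PSMC3 and PSMC6, most of them of the 19S cap. The steepest was the PSMD11 probe set of middle brightness, at -1.38 per unit (SE 0.06, limma adjusted p = 2.21e-11), followed by the dimmer of the PSMF1 pair at -0.86 and PSMC5 at -0.42 (both limma adjusted p = 7.68e-06). PSMB8 (-0.37, SE 0.19) was not called.

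The ratio also had a different mean in the groups compared, at 3.15 ± 1.13 log2 units (SD, n = 4) in CT and 2.20 ± 0.89 in CT-GE-RES (exact permutation p = 0.143, two-sided, adjusted p = 0.681 over 45 tests). With it as a covariate, 41 of 46 probe sets were higher in CT-GE-RES than in CT, with a median of 0.18 and 6 at an unadjusted p under 0.05. Of all 17999 probe sets in that fit 54.7% were higher, the median was 0.0195 and 766 had such a p. PSMG1 then differed by 0.37 (SE 0.14), PSMA5 by 0.30 (SE 0.11) and PSMB5 by 0.25 (SE 0.10), each with a limma adjusted p of 0.957. RNA integrity could not be tested apart from this covariate.

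**Figure D5:**
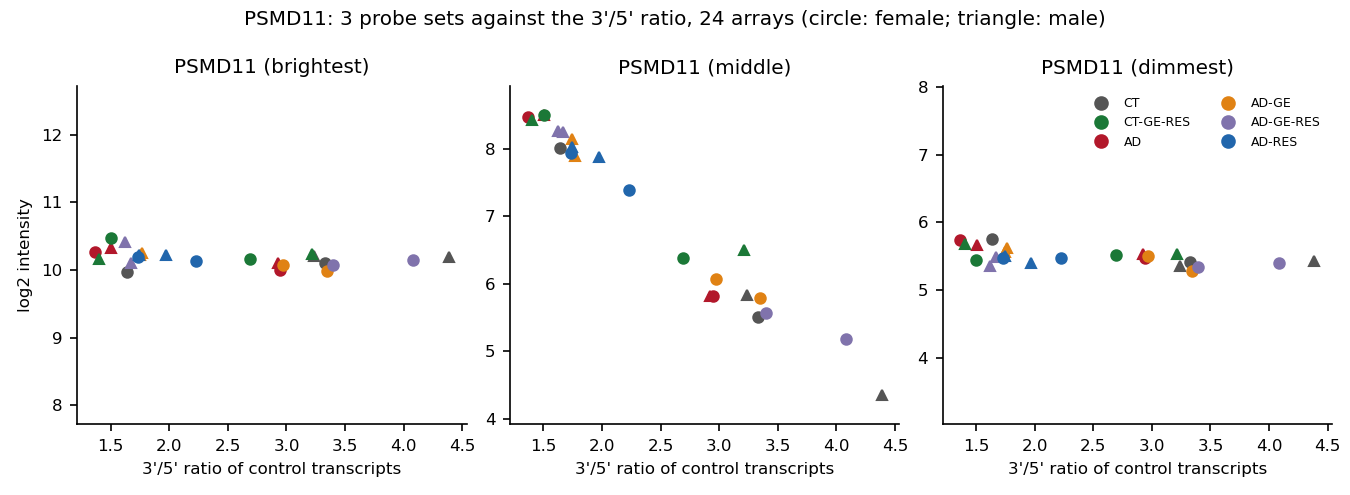
Log2 intensity (y axis, 5 units in each panel) of the 3 PSMD11 probe sets against the 3'/5' ratio of control transcripts (x axis, in log2) on the 24 arrays. Colours mark the diet group, circles are females and triangles males. The middle PSMD11 probe set goes from 8.49 at a low ratio to 4.36 in CT 4 at a ratio of 4.39, whereas the other probe sets stay within 0.5 units.

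Probe sets of the same gene did not always give the same reading. The 3 for PSMD11, a lid subunit, differed between CT-GE-RES and CT by 0.13 (SE 0.10), 1.52 (SE 0.84) and 0.056 (SE 0.10), from brightest to dimmest. The middle PSMD11 probe set read 8.49, 6.38, 6.50 and 8.43 in CT-GE-RES and 8.01, 5.51, 5.84 and 4.36 in CT, with low values in the animals of high ratio in both groups. The pair for PSMF1 gave 0.75 (SE 0.59, the dimmer) and -0.23 (SE 0.21, the brighter), of opposite sign, and the first of these was the one that moved with the ratio. The 3 for PSMC2 gave 0.29 (brightest), 0.11 and 0.27, and the pair for PSMD1 0.14 and 0.095. Without CT 4 the middle PSMD11 probe set differed by 0.86 and the dimmest by 0.029, the dimmer PSMF1 probe set by 0.23, the middle PSMC2 probe set by 0.17 and the PSMD1 pair by 0.22 and 0.16. With all probe sets of a gene averaged, 40 of 40 genes were higher in CT-GE-RES than in CT, and 39 of 40 with the brightest probe set of each.

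Other genes of the pathway were taken from lists of proteasome-associated factors, regulators, shuttle factors, ubiquitin genes and the class I peptide pathway, of which 24 were tested. None was called in any diet comparison. In CT-GE-RES 18 of the 24 were higher than in CT and 6 lower, by a median of 0.15 (52.3% of all probe sets higher). At an unadjusted p under 0.05 there were 2 of the 24, against 6.8% of all probe sets. These were PDIA3, a chaperone of the peptide-loading complex (0.34, SE 0.14), and UFD1, a cofactor of the segregase VCP (0.44, SE 0.18). Without CT 4, 18 of the 24 were higher, by a median of 0.082, and none had such a p (PDIA3 0.19, UFD1 0.23). Shuttle and segregase factors were higher in 4 of 4 (3 of 4 without CT 4) and the class I peptide genes in 8 of 10 (9 of 10 without CT 4), whereas the ubiquitin genes UBB and RPS27A had a median difference of -0.0070 (-0.028 without CT 4).

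In AD against CT, 14 of the 24 were higher and 10 lower. Of all probe sets 50.4% were higher, and 6.38% had an unadjusted p under 0.05 in either direction. At an unadjusted p under 0.05, PDIA3 (0.36, SE 0.14), FAF2 (0.31, SE 0.12), the endoplasmic reticulum chaperone HSPA5 (0.30, SE 0.12) and ZFAND5 (0.33, SE 0.15) were higher, and PAAF1, an assembly factor of the cap, was lower (-0.28, SE 0.13). Without CT 4, 12 were higher and 12 lower, and HSPA5 (0.33) alone had such a p, with PDIA3 at 0.22. In AD-GE against AD 18 of 24 were lower (51.4% of all probe sets higher). Among them were TXNL1, a thioredoxin-like protein of the 19S cap, at -0.29 (SE 0.12), CALR at -0.21 (SE 0.13) and ZFAND5 at -0.23 (SE 0.15). In AD-GE-RES against AD 13 of 24 were lower (52.4% of all probe sets higher), and FAF2 (-0.20, SE 0.12) had the smallest p. In AD-RES against AD 15 of 24 were lower (49.4% of all probe sets higher). They were led by ZFAND2A (-0.43, SE 0.16) and ZFAND5 (-0.35, SE 0.15), zinc finger proteins that associate with the proteasome.

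Some marker lists had different means in CT-GE-RES and CT, although no list had an exact permutation p under 0.05. The B cell, NK, monocyte and platelet lists had exact permutation p of 0.571, 0.229, 0.714 and 0.971. In CT-GE-RES 9 of 9 T cell genes were higher than in CT, with list means of 0.010 to 0.49 against -1.34 to 0.17 (exact permutation p = 0.0857; adjusted p = 0.681 over 45 tests). Neutrophil genes were lower in 6 of 7, at -0.71 to 0.19 against 0.042 to 2.17 (exact permutation p = 0.114). Erythroid genes were lower in 3 of 4, at -1.38 to 0.21 against -0.69 to 1.84 (exact permutation p = 0.229). Interferon response genes, which include no proteasome subunit, were higher in 3 of 15, at means of 0.053 and 0.38. The lowest T cell mean and the highest neutrophil, erythroid and interferon response means were all those of CT 4. Without that animal the CT mean of the interferon response genes was 0.14 (exact permutation p = 0.886). Without CT 4 the CT means ran from -0.41 to 0.17 for the T cell genes, 0.042 to 0.17 for the neutrophil genes and -0.69 to 0.43 for the erythroid genes (exact permutation p = 0.143, 0.143 and 0.486). A fit with the monocyte, B cell and erythroid list means as covariates called no member in this comparison. Over all alternatives, that fit among them, the members' median lay between 0.12 and 0.31, with 41 to 45 members higher. The T cell, neutrophil and interferon response list means were not covariates in that fit. Their part in the differences of the subunits was not tested.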

How the data were processed

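PBMNC RNA of 24 pigs was hybridised to Affymetrix porcine arrays, 1 per animal, at 4 animals per group. The values are linear intensities that the authors deposited as the series' value table. RMA and GCOS are named, without versions or roles, in the submitters' processing notes. The intensities have no counts, so the number of arrays limits the precision. Here log2 was taken without further normalization. Control probe sets and the lowest 25% by mean were left out. limma 3.58.1 (R 4.3.3; lmFit and eBayes) fitted 6 group means and sex over 24 arrays, two-sided, with Benjamini-Hochberg adjustment over 17999 probe sets. The script was tested on simulated data.

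Probe sets were named from the platform annotation: of those tested, 8540 had 1 symbol, 168 several and 9291 none. List means and the 3'/5' ratio were compared by exact permutation. Values per animal are given for the inducible subunits, their counterparts, PSME1, PSME2 and the 3 members of smallest p in each comparison; the other members are described by role, and PSMB3, PSMB4, PSMC1, PSMC5, PSMD6 and PSME3 were singled out after their values were seen. The members and lists were chosen with earlier results of these data known. The test of the ratio's slope and the values of single members, pathway genes and markers without CT 4 were added after seeing the data. Alternatives were another filter, scaling, pseudocount, covariates, array weights, each sex and each array left out.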

Additional observations from a re-analysis of the deposited data

Results flagged for a closer look

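Of 126 groups of 4 values examined for the named members, 7 held an animal far from the other 3 of its group, where chance alone gives about 1 in 20. CT 4 was the low animal for PSMB5 (8.67), PSMB7 (9.51) and PSMA2 (11.20). The others were AD-GE 1 for PSMB5 (8.96), AD 4 for PSMB6 (10.03), AD-GE-RES 1 for PSMB8 (9.33), all low, and AD 1 for the second PSMD1 probe set (9.17), which was high.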

How the results depend on the processing

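Over the alternatives and left-out arrays, 0 of 46 members were called in each diet comparison and in the F test. Over all probe sets the share called was also 0% in most of these fits, but in males alone it was 1.34% (AD against CT), 0.678% (CT-GE-RES against CT) and 0.0389% (AD-RES against AD). Between the sexes 2 members were called with array weights, where 4.48% of all probe sets were, and 0 in the other fits. Among 740 refits of 20 results on named members, 735 kept their direction, 5 reversed and none crossed the threshold (smallest adjusted p = 0.0697, limma). Many of these refits could not reverse a direction, because the groups are balanced for sex. Leaving out the sex term or an array of a group not compared, or changing the filter or prior, left the difference itself unchanged. PSMB8 in AD against CT reversed to -0.036 with the 3'/5' ratio as a covariate, -0.36 in males alone and -0.073 without CT 2 (range with 1 array left out -0.073 to 0.75). PSMB8 in CT-GE-RES against CT was -0.20 in males, and PSME2 in AD against CT was -0.0086 in females. Of the members' medians, the contrast of the extract on the 2 diets was -0.14 with array weights (-0.1352) and with the ratio (-0.1368), and males against females was 0.083 with the cell list means as covariates. AD against CT was -0.056 in females and 0.15 in males, and CT-GE-RES against CT 0.12 in females. The causes were not tested.

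With 1 array left out at a time, the medians ran from -0.0026 to 0.088 (AD against CT), -0.12 to -0.026 (AD-GE against AD), -0.075 to 0.044 (AD-GE-RES against AD), 0.0069 to 0.091 (AD-RES against AD), 0.16 to 0.26 (CT-GE-RES against CT), -0.32 to -0.18 (the contrast of the extract on the 2 diets) and -0.036 to 0.0047 (males against females). Members higher in CT-GE-RES than in CT were 41 to 45 of 46 under every alternative run. No paired analysis was possible because the labels give each animal a number of its own.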
